A study of Mus musculus with 39 samples.

Results

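Cdkn1a, Cdkn1b, Cdkn2c and Cdkn2d encode inhibitors of cyclin-dependent kinases (CDKs), as does Cdkn1c, the imprinted gene on chromosome 7 around which the study was built. These 4 genes were taken by symbol from the 53379 genes in the count tables. The question was whether their RNA was higher in neocortical cells in which Cdkn1c is absent or low. The cells came from E13 and E16 mouse embryos (E, embryonic day) that carried the cassettes of Mosaic Analysis with Double Markers on chromosome 7 (MADM-7-GT and MADM-7-TG) and Emx1-Cre, in a mixed C57BL/6J, CD1 background (the strain label reads CD1). Emx1-Cre drives the recombination in cortical progenitors and their descendants, so every group shares the same cassettes and the same Cre. When a labelled progenitor divides after recombination between the homologues, one daughter can be red (tdTomato) and the other green (GFP), and each then carries chromosome 7 from only the mother or only the father, called uniparental disomy (UPD). Cells with paternal UPD (patUPD) were the red cells of replicates 1 to 3 and the green cells of replicates 4 and up, and cells with maternal UPD (matUPD) were the other colour. This assignment follows the 2 directions of the cross, because the sample labels give colour only. Yellow cells kept the chromosome of each parent and were the controls.

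CDK inhibitors slow or stop the cell cycle before DNA replication. Members of the Cip/Kip family, p21 (Cdkn1a), p27 (Cdkn1b) and p57 (Cdkn1c), bind complexes of cyclins with CDKs and can hold back several kinases. Members of the INK4 family, among them p18 (Cdkn2c) and p19 (Cdkn2d), bind CDK4 and CDK6 and keep them from the D-type cyclins. In the developing cortex, p27 and p57 are best known for the exit of progenitors from the cell cycle, and p21 is best known as a target gene of p53.

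After libraries with under 40% uniquely aligned reads were left out, 36 of 39 libraries remained, with 5 of each group at E13 and 7 of each group at E16, and 12 embryos had both a patUPD and a matUPD library. Gene counts per library ran from 472924 to 5205788. The floor of 3 counts was worth 0.576 to 6.34 CPM (counts scaled to library size). This range was computed from the gene counts alone, whereas the levels below also carry a normalisation factor. Levels under the floor are printed and enter the tallies within embryos. Of the cell type markers examined, those of projection neurons summed to at least 2089 CPM, those of radial glia to at least 214 CPM and those of intermediate progenitors to at least 113 CPM in every library labelled cortex. Haemoglobin transcripts ranged from 0.213 to 18805 CPM at E13 and from 0.224 to 6925 CPM at E16, and their part in the results below was not tested. The E16 yellow replicate 7 library had the fewest genes detected (7858, against a median of 12030.5). It and 3 other kept libraries (E13 yellow replicate 2 and E16 red replicates 5 and 6), which the study had left out, are absent from the values given for the 32 libraries that the study used.

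Cdkn1c (ENSMUSG00000037664.13, GRCm38 chr7:143458339-143461050, minus strand) checked the direction of the disomy. It was at 0 CPM in 2 of the 5 patUPD libraries of E13 and in 4 of the 7 of E16. The other E13 patUPD libraries had 115.7 CPM (replicate 1), 11.1 CPM (replicate 2) and 30.8 CPM (replicate 3), and the other E16 patUPD libraries had 0.925 CPM (replicate 1), 13.6 CPM (replicate 2) and 5.15 CPM (replicate 6). In matUPD cells the lowest, median and highest levels were 57.4, 110.1 and 277.5 CPM at E13 and 29.6, 80.7 and 224.8 CPM at E16, and in yellow cells they were 27.9, 79.2 and 124.1 CPM at E13 and 11.0, 26.4 and 64.5 CPM at E16. Thus Cdkn1c was lower in patUPD than in matUPD cells of the same embryo in 12 of 12 embryos, without overlap of the groups at E16 and with 1 overlapping library, replicate 1, at E13. It was lower rather than absent in part of the patUPD libraries, which at E13 were those of replicates 1 to 3. The comparisons below include these libraries and so do not concern absence alone. Over both ages the log2 fold change was -5.09 ± 1.01 (SE; edgeR quasi-likelihood test with the embryo as a block, adjusted p = 0.0452). The call was not reached without the block (log2 fold change -3.66, adjusted p = 0.0897), in the 32 libraries that the study used (-4.86, adjusted p = 0.158), or in 10 of the 13 fits that left out 1 embryo, with a log2 fold change of -5.93 to -4.66 over those 13. Cdkn1c shares part of its exon bases with Gm44732 on the other strand, and the libraries carry no strand information. Reads in the shared bases cannot be assigned to one gene of the pair. The unstranded gene counts of STAR give such reads to neither, so the level of Cdkn1c may be too low.

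None of the 4 other inhibitors lies on chromosome 7. Cdkn1a (ENSMUSG00000023067.13) is on chr17:29090976-29100727, plus strand, and Cdkn1b (ENSMUSG00000003031.14) is on chr6:134920401-134925513, plus strand. Cdkn2c (ENSMUSG00000028551.14) is on chr4:109660876-109667189, minus strand, and Cdkn2d (ENSMUSG00000096472.2) is on chr9:21288410-21291407, minus strand. Their exons cover 3553, 4552, 2686 and 1574 bases, in that order. Cdkn1a shares exon bases with AC167363.2 on the minus strand, and no annotated gene shares exon bases with the other 3. The counts of Cdkn1a may miss reads in its shared bases too.

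The 4 genes differed in how often they were detected at all. Cdkn1b was above 0 in 35 of 36 libraries, Cdkn2d in 30, Cdkn2c in 22 and Cdkn1a in 9. Per kilobase of exon, a scale on which genes of unequal length can be compared, the mean level was 7.98 CPM for Cdkn2d, 4.98 CPM for Cdkn1b, 2.23 CPM for Cdkn2c and 0.415 CPM for Cdkn1a. By the median over libraries, Cdkn2d (5.10 CPM per kilobase) and Cdkn1b (4.49 CPM per kilobase) came before Cdkn2c (1.13 CPM per kilobase) and Cdkn1a (0 CPM). The order of the first pair was not the same at both ages, with medians of 8.47 for Cdkn2d and 3.96 for Cdkn1b at E13 and 3.19 and 4.83 CPM per kilobase at E16. The mean of Cdkn1c on this scale, which divides by all its exon bases, shared ones included, was 30.0 CPM. The other INK4 genes, Cdkn2a and Cdkn2b, had 0 counts in all 39 libraries.

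Spread between libraries was also unequal. Cdkn1b was the steadiest of the 4, at 22.7 ± 15.1 CPM (SD, n = 36) and a coefficient of variation (SD over mean) of 0.665, against a median of 1.01 over the 11472 genes with a mean count of 10 or more. The coefficient was 1.26 for Cdkn2d, 1.58 for Cdkn2c and 2.64 for Cdkn1a, and 76.6% of those genes had a lower one than Cdkn2c. The coefficients were not adjusted for level. By mean CPM, 44.3% of those genes lay below Cdkn1b, 29.8% below Cdkn2d and 13.5% below Cdkn2c. Of the same genes the median was at 0 in 3 libraries, while Cdkn2c was at 0 in 14 and Cdkn2d in 6. A level of 0 was thus common in these small pools of cells, and the source of these 0 values was not tested. Among other things, fewer cells expressing a gene cannot be told apart from less RNA per cell.

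**Figure D1:**
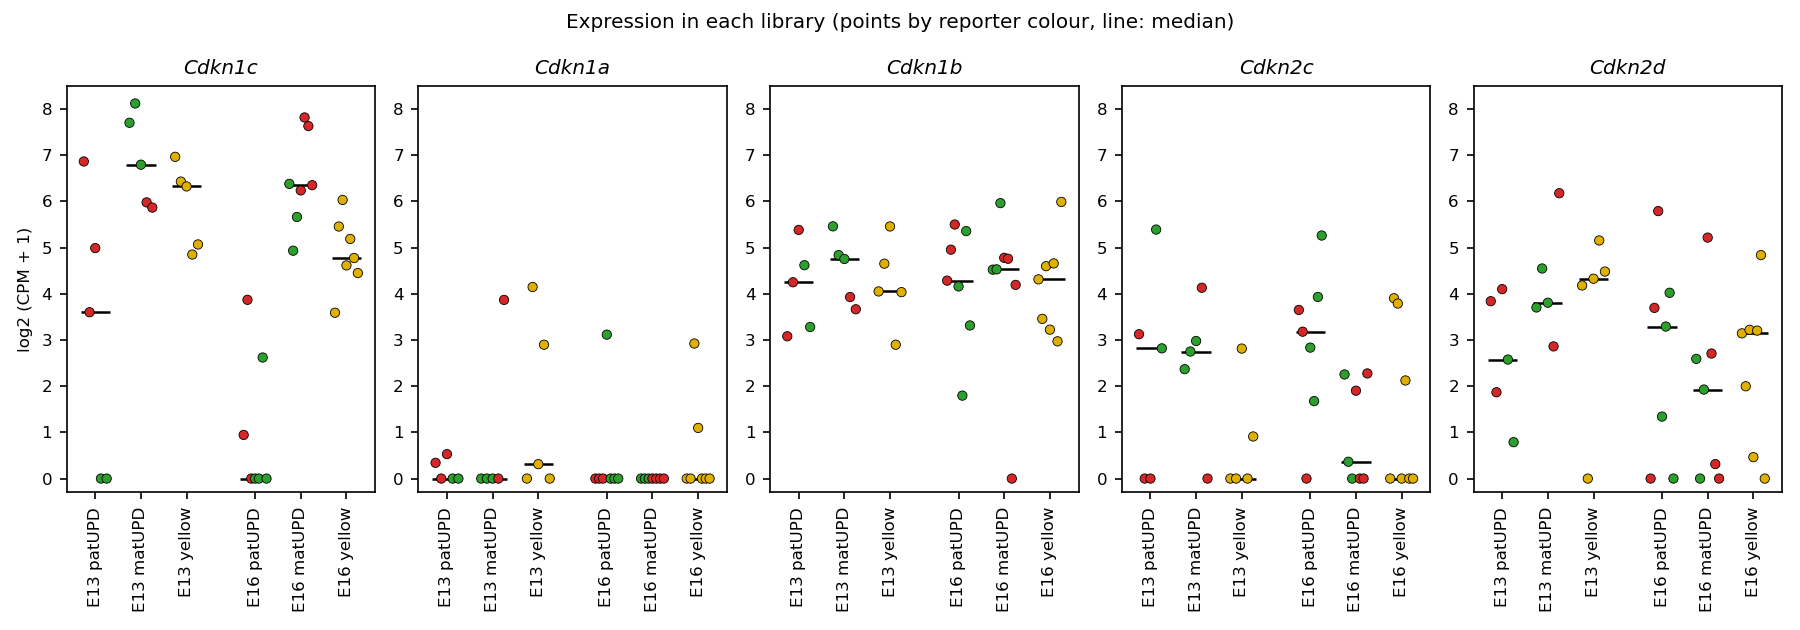
Level of Cdkn1c and the 4 other CDK inhibitors in each of the 36 libraries, as log2 (CPM + 1), by age and group; points carry the reporter colour and the line is the group median. For Cdkn1c patUPD and matUPD cells did not overlap at E16 and overlapped by 1 library at E13, whereas the groups overlapped for the other 4 genes.

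Cdkn1a, the p53 target gene of the Cip/Kip family, was close to absent. At E13 the 5 patUPD libraries had at most 2 counts (0.443 CPM). Of the 5 matUPD libraries, 4 were at 0 and red replicate 6 had 64 counts (13.6 CPM). Yellow replicates 2 and 5 had 72 counts (16.7 CPM) and 19 counts (6.45 CPM), and the other 3 yellow libraries had at most 1. At E16 all 7 matUPD libraries were at 0, patUPD green replicate 4 had 5 counts (7.67 CPM) and the other 6 patUPD libraries were at 0. The E16 yellow libraries were at 0 except replicate 3 with 19 counts (6.59 CPM) and replicate 4 with 3 counts (1.14 CPM). Cdkn1a was thus above 3 counts in 5 of 36 libraries, 1 of them patUPD, and no fold change is given for it. In patUPD cells at E13 its level was not detectable above 3 counts in any library.

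Cdkn1b, the Cip/Kip gene closest to Cdkn1c in its known role in cell cycle exit, had overlapping levels in the 3 groups. At E13 patUPD cells had 7.46, 18.0, 40.8, 23.6 and 8.72 CPM in replicates 1, 2, 3, 4 and 6. The matUPD cells of the same embryos had 43.1, 27.6, 26.0, 14.2 and 11.7 CPM, and yellow cells had 6.45 to 43.0 CPM (median 15.6). The ranges overlapped nearly in full, and the group means were 19.7 ± 13.5 CPM (SD, n = 5) in patUPD, 24.5 ± 12.5 in matUPD and 20.9 ± 13.8 in yellow cells.

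At E16 the lowest, median and highest level of Cdkn1b were 2.47, 18.5 and 44.3 CPM in patUPD, 0, 22.1 and 61.4 CPM in matUPD, and 6.84, 18.9 and 62.6 CPM in yellow cells. Again the groups overlapped, with means of 23.0 ± 15.6, 25.1 ± 18.4 and 22.0 ± 19.2 CPM (SD, n = 7). The matUPD library at 0 was red replicate 6, which the study had left out and which had 9210 genes detected. The E16 log2 fold change of patUPD over matUPD was 0.083 with this embryo and -0.61 without it. Within embryos Cdkn1b was higher in patUPD cells in 4 of 12 and lower in 8, by -0.081 ± 2.24 log2 CPM on average (SD, n = 12; prior count 2). The fitted log2 fold change of patUPD over matUPD, both ages, was -0.22 ± 0.73 (SE), a fold of 0.857 with a 95% interval of 0.302 to 2.43. A rise of Cdkn1b above 2.43-fold, as a mean of the ages, lies outside this interval, while a smaller one does not. For the single ages the upper limit was higher, at 2.91-fold at E13 and 5.09-fold at E16.

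Cdkn2c, the INK4 gene p18, had the largest fitted difference of the 3 inhibitors tested between patUPD and matUPD cells at E16. Its level in patUPD cells was 11.6, 8.06, 0, 6.14, 2.20, 14.3 and 37.4 CPM in replicates 1 to 7. In the matUPD cells of the same embryos it was 3.77, 0.287, 0, 2.74, 0, 0 and 3.84 CPM. Cdkn2c was therefore higher in patUPD cells of 6 embryos, lower in none and at 0 in both libraries of replicate 3. In embryos 5 and 6 the matUPD library was at 0, and the study had left out both of those libraries. The matUPD libraries of replicates 2 and 7 had 1 and 2 counts, which is under the floor. In embryo 4 the patUPD library had 4 counts and the matUPD library had 9. The group means were 11.4 ± 12.5 CPM in patUPD and 1.52 ± 1.84 CPM in matUPD cells (SD, n = 7), and yellow cells lay between them at 4.31 ± 6.34 CPM, with 4 of 7 libraries at 0. The counts behind these values were low, 0 to 167 in patUPD, 0 to 9 in matUPD and 0 to 37 in yellow libraries. A gene needed a mean count of 10 over the E16 libraries to be tested. No matUPD library reached 10, so Cdkn2c passed this filter through the other groups, mostly patUPD. Its first place by fitted difference is therefore not independent of the filter. The fitted log2 fold change was 3.27 ± 2.07 (SE; 95% interval -1.05 to 7.60, unadjusted p = 0.130, adjusted p = 1, edgeR), so it did not pass the test. Within embryos the difference was 2.23 ± 1.55 log2 CPM on average (SD, n = 7; 0 to 4.60). The fitted value was 2.38 in the 32 libraries that the study used and 2.54 to 4.05 with 1 embryo left out.

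At E13 the same gene did not follow the direction of the disomy. In patUPD cells Cdkn2c was at 7.73, 0, 0, 41.0 and 6.06 CPM in replicates 1, 2, 3, 4 and 6, and in matUPD cells it was at 4.17, 5.73, 6.88, 16.5 and 0 CPM. It was higher in patUPD cells of 3 embryos and lower in 2, with a log2 fold change of -1.30 ± 2.62 (SE). The sign turned to 0.68 without the block, and it differed between the directions of the cross, at -4.23 in embryos 1 to 3 and 2.91 in embryos 4 and up. Sorted by colour instead, all 5 green libraries held Cdkn2c, at 4.17 to 41.0 CPM, while 3 of 5 red libraries were at 0 and the other 2 had 7.73 and 16.5 CPM. Green over red gave 3.50 ± 2.61 (SE; 95% interval -2.16 to 9.15, adjusted p = 1, edgeR). Neither colour nor direction passed the threshold for Cdkn2c at E13.

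Cdkn2d, the INK4 gene p19, was uneven between libraries of every group. At E13 patUPD cells had 13.3, 2.65, 16.2, 4.97 and 0.727 CPM in replicates 1, 2, 3, 4 and 6, and matUPD cells had 12.0, 22.4, 13, 6.27 and 71.4 CPM. Yellow cells ranged from 0 to 34.6 CPM (median 19.1). The matUPD mean of 25.0 ± 26.6 CPM (SD, n = 5) stood above the patUPD mean of 7.57 ± 6.80 CPM, mostly through red replicate 6, the library that also held Cdkn1a. The log2 fold change of patUPD over matUPD was -1.83 ± 1.62 (SE) and -1.0 without embryo 6.

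At E16 the order of the Cdkn2d means was the opposite, with 13.1 ± 19.2 CPM in patUPD, 7.12 ± 13 CPM in matUPD and 7.91 ± 9.42 CPM in yellow cells (SD, n = 7). The patUPD libraries had 0, 12.0, 54.4, 1.53, 8.79, 15.3 and 0 CPM in replicates 1 to 7, and the matUPD libraries had 5.03, 0, 2.80, 36.2, 5.53, 0.243 and 0 CPM. Each group thus had 1 library far above its others, and the groups overlapped. The log2 fold change was 1.26 ± 2.19 (SE), and it ran from 0.079 without embryo 2 to 2.71 without embryo 4. Over both ages Cdkn2d was higher in patUPD cells in 6 embryos, lower in 5 and at 0 in both libraries of 1.

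**Figure D2:**
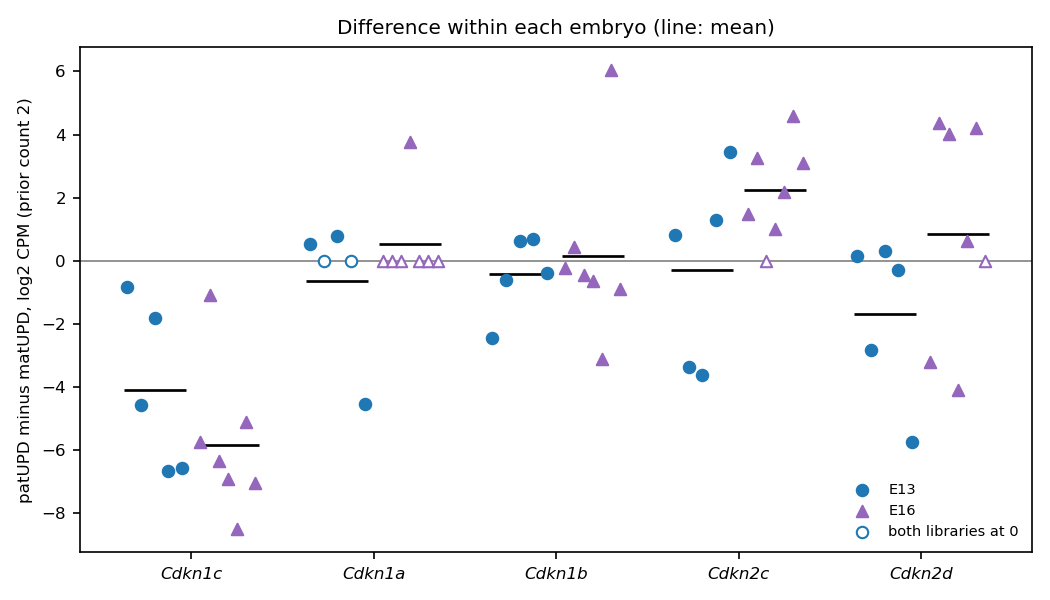
Difference between patUPD and matUPD cells of the same embryo in log2 CPM (prior count 2), for 5 embryos at E13 (circles) and 7 at E16 (triangles); open symbols mark embryos with both libraries at 0 and the line is the mean. All 12 points lie below 0 for Cdkn1c, while Cdkn1b, Cdkn2d and Cdkn1a scatter on both sides and Cdkn2c is above 0 in 6 of 7 embryos at E16.

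None of the 4 inhibitors passed the adjusted threshold of 0.05 between patUPD and matUPD cells in the fit over both ages, where 7 of 11472 genes did (0.0610%), nor at an unadjusted p under 0.05, where 2.58% of genes did. Of the 4, Cdkn1b, Cdkn2c and Cdkn2d had enough counts to be tested in that fit. Their median log2 fold change was -0.22, against 0.0036 over all genes, and Cdkn1a was too low to be tested. At E13 all 4 were tested and 0 passed, as did 0 of 11786 genes (unadjusted p under 0.05 in 2.24%, none of the 4 among them; 202 genes by DESeq2). At E16 3 of 10794 genes passed (0.0278%; 2.31% at an unadjusted p under 0.05) and none of the 3 inhibitors tested did, at either threshold. Cdkn1c, lower in patUPD cells of every embryo, did not pass in these single ages either (log2 fold change -3.66 ± 1.33 at E13, adjusted p = 1, and -6.49 ± 1.33 at E16, adjusted p = 0.227, edgeR). The intervals were wide. At E16 they ran from -2.18 to 2.35 for Cdkn1b, from -1.05 to 7.60 for Cdkn2c and from -3.36 to 5.87 for Cdkn2d on the log2 scale. A p above the threshold therefore does not show that the levels were alike.

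The difference between ages in the patUPD over matUPD contrast was tested as an interaction. It was 0.59 ± 1.46 (SE, log2) for Cdkn1b, 4.55 ± 3.47 for Cdkn2c and 3.08 ± 2.78 for Cdkn2d, positive for all 3 and past the threshold for none. No gene passed it (0% of 11472; 2.54% at an unadjusted p under 0.05; 207 genes by DESeq2). The median over all genes was 0.14. The 95% intervals were -2.41 to 3.58 for Cdkn1b, -2.57 to 11.7 for Cdkn2c and -2.64 to 8.80 for Cdkn2d.

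Against yellow cells, which hold 1 active copy of Cdkn1c, none of the inhibitors tested passed the threshold, 4 at E13 and 3 at E16, where Cdkn1a was too low to be tested. At E13 patUPD over yellow cells gave a log2 fold change of -0.64 ± 1.01 (SE) for Cdkn1b, 3.06 ± 2.36 for Cdkn2c and -0.87 ± 1.68 for Cdkn2d. Here 0 of 11786 genes passed (5.95% at an unadjusted p under 0.05, none of the inhibitors among them; 488 genes by DESeq2). At E16 the values were 0.28 ± 1.12 for Cdkn1b, 0.95 ± 2.92 for Cdkn2c and 0.52 ± 1.65 for Cdkn2d. Again 0 of 10794 genes passed (1.59% at an unadjusted p under 0.05; 58 by DESeq2). Cdkn2c at E16 was -0.16 without embryo 6 and 3.41 without embryo 3. The yellow library of replicate 3 is listed under the other cross in the sample sheet of the study and may come from another embryo. The sign for Cdkn2c at E16 depended on the cross, at -2.36 in embryos 1 to 3 and 5.63 in embryos 4 and up, a split of this comparison chosen after seeing the data.

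Other genes of the cell cycle, within this pathway and outside it, had mostly positive values in this comparison without passing the test. The G1 cyclins and kinases were Ccnd1, Ccnd2, Ccnd3, Ccne1, Ccne2, Ccna2, Cdk2, Cdk4 and Cdk6, of which the INK4 family binds only the last 2. Of these 9 genes, 9 had a positive log2 fold change in patUPD over yellow cells at E13. Their median was 1.54 against -0.13 over all genes. The threshold was passed by 0 of 9, with 4 of 9 at an unadjusted p under 0.05. At E16 8 of the 8 tested were positive, with a median of 1.34 against 0.067 over all genes, and 0 passed. Between patUPD and matUPD cells over both ages, 4 of 9 were positive and the median was -0.0076. S phase genes (12 of 13 positive at E13, median 1.44; 10 of 12 at E16, median 1.22) and genes of G2 and mitosis (14 of 14, median 1.29; 13 of 14, median 0.91) lay on the same side over yellow cells, with 0 past the threshold. So did markers of intermediate progenitors (4 of 4 tested at both ages), while markers of projection neurons (0 of 8) and Cajal-Retzius neurons (0 of 3) lay on the other side at E13. At E16 these were 4 of 8 and 0 of 3. The summed level of radial glia markers in yellow cells lay below both disomy groups at E13 and overlapped them at E16. It was 1823 to 3167 CPM in patUPD, 1854 to 3089 CPM in matUPD and 706 to 1681 CPM in yellow cells at E13. At E16 the corresponding ranges were 966 to 3663, 826 to 3867 and 214 to 1906 CPM. The part of these cell types in the levels of the inhibitors was not tested.

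Genes upstream and downstream of the inhibitors were counted in the same way. Of 8 tested Rb family and E2F factors, through which CDK4 and CDK6 act, 4 were positive in patUPD over matUPD cells over both ages (median -0.23) and 0 passed. Of 10 regulators of the inhibitors, among them the ubiquitin ligase subunits Skp2 and Cks1b that mark p27 for degradation, and Trp53, 5 were positive (median -0.095) and 0 passed. Of 8 tested p53 target genes 2 were positive (median -0.47) and 0 passed. S phase genes (5 of 12 positive, median -0.015) and genes of G2 and mitosis (6 of 14 positive, median -0.038) had 0 genes past the threshold in this contrast, in which the median of all genes was 0.0036.

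**Figure D3:**
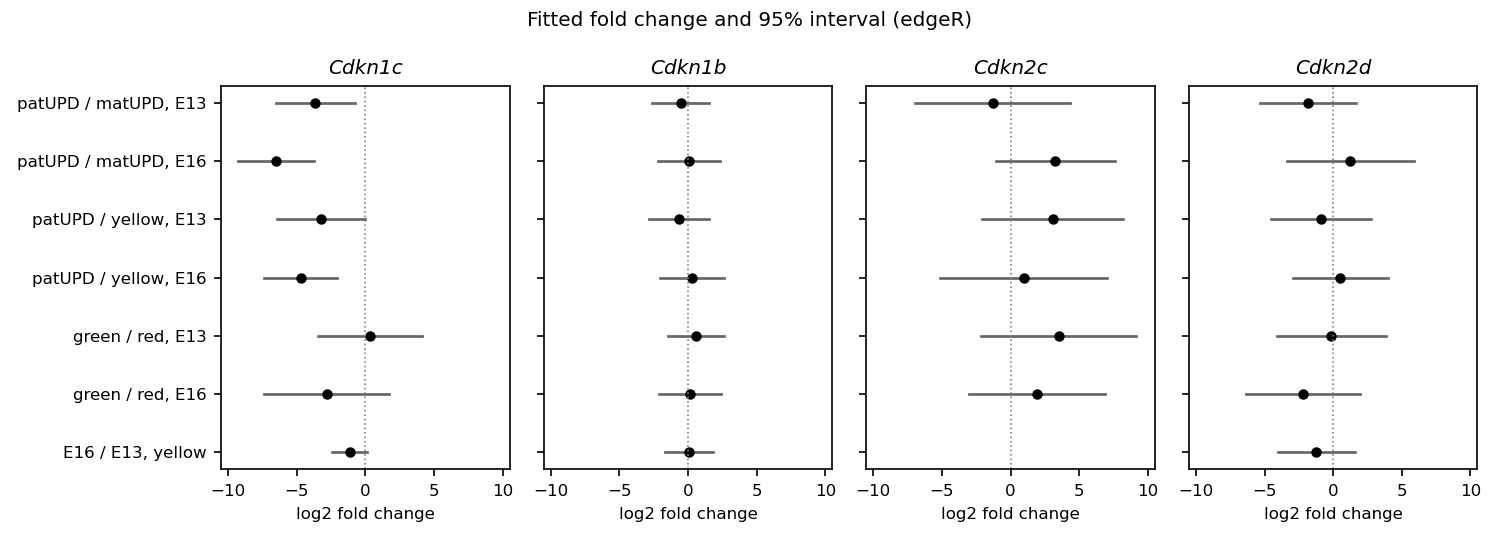
Log2 fold change fitted by edgeR (point) and 95% interval derived from its F statistic (line) for Cdkn1c, Cdkn1b, Cdkn2c and Cdkn2d in 7 comparisons. Cdkn2c was too low to be tested between ages in yellow cells. For the 3 inhibitors other than Cdkn1c every interval crosses 0, and the intervals of Cdkn1b are the narrowest.

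Reporter colour was compared on its own because colour and direction of the disomy are crossed over the replicates. Green over red cells gave a log2 fold change of 0.58 ± 0.95 (SE) at E13 and 0.16 ± 1.09 at E16 for Cdkn1b. For Cdkn2d it was -0.14 ± 1.84 and -2.23 ± 1.97. For Cdkn2c it was 1.89 ± 2.37 at E16, beside the E13 value above. None of the inhibitors passed, and neither did any other gene at E13 (0% of 11786; 2.21% at an unadjusted p under 0.05; 223 genes by DESeq2) or at E16 (0% of 10794; 2.33%; 74 genes by DESeq2). Cdkn2c at E13 in green over red cells had an unadjusted p of 0.0480 and an adjusted p of 0.585 by DESeq2. At E13 the sign for Cdkn2d rested on single embryos, at 0.88 without embryo 6 and -1.45 without embryo 2. Within one direction of the cross, colour and direction cannot be told apart.

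Age was compared in yellow cells, which have no disomy. The mean level of Cdkn1b was 20.9 ± 13.8 CPM at E13 (SD, n = 5) and 22.0 ± 19.2 CPM at E16 (SD, n = 7). Its log2 fold change of E16 over E13 was 0.061 ± 0.82 (SE; 95% interval -1.68 to 1.81). The sign was not stable, at -0.40 in the 32 libraries that the study used and -0.45 without E16 embryo 7, whose yellow library held the highest level. The mean level of Cdkn2d was 18.4 ± 12.4 CPM at E13 and 7.91 ± 9.42 CPM at E16, with a log2 fold change of -1.22 ± 1.33 (SE; 95% interval -4.04 to 1.59). Neither passed, where 17 of 11378 genes did (0.149%), and neither was under an unadjusted p of 0.05, where 8.69% of genes were. Cdkn2c, at 0 in 3 of the 5 yellow libraries of E13 and 4 of the 7 of E16, was too low to be tested.

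With the colours of an embryo summed, E16 over E13 gave 0.25 for Cdkn1b and -0.88 for Cdkn2d (log2, adjusted p = 0.828 and 0.608, edgeR), while 524 genes passed. Genes of the cell cycle had negative fold changes in the yellow cells. Of 12 S phase genes tested 0 were positive (median log2 fold change -1.51), and of 14 genes of G2 and mitosis 0 were positive (median -1.93), against -0.061 over all genes, with none past the threshold. The G1 cyclins and kinases had 1 of 9 positive (median -1.55, 0 past the threshold). Markers of radial glia (2 of 7 positive, median -1.65), interneurons (0 of 2, -7.39), microglia (0 of 3, -8.15) and erythroid cells (0 of 4, -4.20) were also mostly negative, and those of projection neurons mostly positive (6 of 8, 0.47). Their part in the values of the inhibitors was not tested.

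The summed level of the 4 inhibitors gives their output together. Per kilobase of exon the sum at E13 was 13.3 ± 8.31 CPM in patUPD, 24.5 ± 15.6 CPM in matUPD and 18.1 ± 6.42 CPM in yellow cells (SD, n = 5). At E16 it was 17.9 ± 13.1, 10.6 ± 9.70 and 11.8 ± 5.56 CPM (SD, n = 7). The order of the groups turned between the ages and every pair of groups overlapped. Within embryos the sum was higher in patUPD cells in 6 of 12 and lower in 6. For comparison, the mean level of Cdkn1c alone was 70.1 ± 47.3 CPM per kilobase in matUPD and 15.5 ± 23.9 in patUPD cells at E13, and 51.8 ± 36.7 and 1.38 ± 2.51 at E16.

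**Figure D4:**
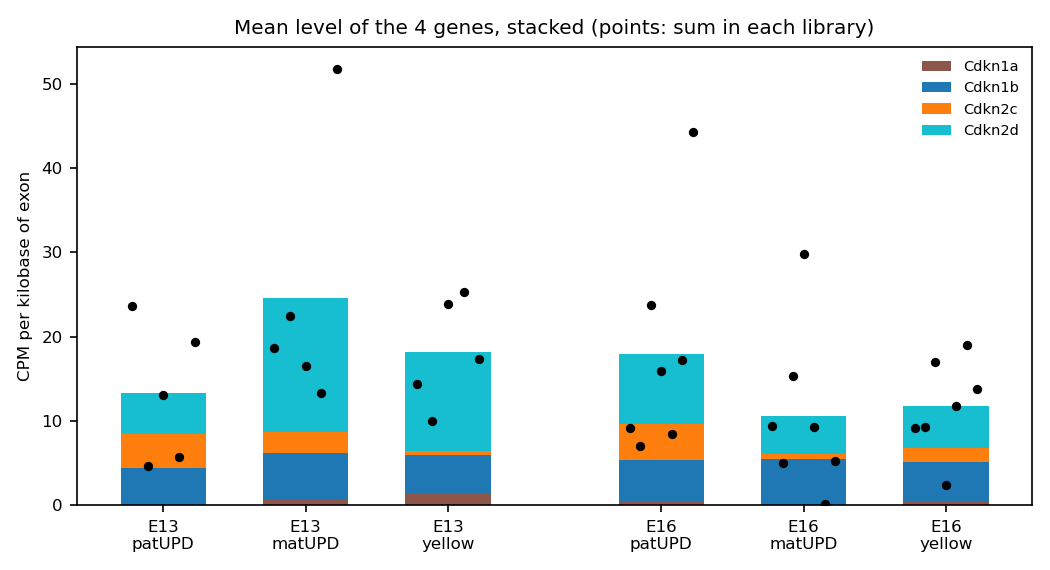
Mean level of Cdkn1a, Cdkn1b, Cdkn2c and Cdkn2d in CPM per kilobase of exon, stacked, by age and group; points are the sum of the 4 genes in each library. The patUPD mean (13.3) is the lowest of the 3 at E13 and the highest (17.9) at E16, and the libraries of the groups overlap at both ages.

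Across the 36 libraries, the genes whose log2 CPM ran most like each inhibitor were sought among 7278 genes with a symbol and a mean count of 50 or more. Of the CDK inhibitors named here only Cdkn1b and Cdkn1c reached that count. The list therefore cannot show whether the inhibitors run together. For Cdkn1b the genes most alike were Fam171b (Pearson r = 0.71), the nuclear pore subunit Nup205 (0.71) and the deoxycytidine kinase Dck (0.69). For Cdkn2d they were Emb (0.68), the centrosomal gene Cep97 (0.65) and Zhx3 (0.65). For Cdkn2c they were Serbp1 (0.60), Rab31 (0.56) and Tbc1d4 (0.53), and for Cdkn1a, which was at 0 in 27 libraries, they included Kazn (0.54) and Srebf2 (0.50). These values describe the libraries, which share embryos, and are the highest of many computed, so they carry no test.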

How the data were processed

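RNA of small pools of sorted neocortical cells was sequenced with Smart-Seq2, without molecular identifiers or strand information. Technical replicates were combined (SAMtools 1.8), converted with bedtools 2.26.0, and aligned by the authors with STAR 2.5.0c to GRCm38 with Gencode M16, keeping reads with a single alignment. The authors deposited unnormalised read counts per gene, and the unstranded column was used. Symbols, coordinates and exon lengths are from Gencode M21, in which 53274 of 53379 gene identifiers were found.

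Libraries with under 40% uniquely aligned reads were left out (replicate 3 yellow and replicate 5 red and green, all E13), which kept 36 libraries with 50.5% to 66.0% uniquely aligned reads and a median of 3452734.5 gene counts. CPM used TMM-scaled library sizes, except for the CPM of the floor, which used the gene counts alone. A floor of 3 counts covers counting error only, since PCR reads are not independent molecules. Groups were age and colour from the labels, and the direction of the disomy came from the cross. The test, for genes with a mean count of 10 or more, was the quasi-likelihood test of edgeR 4.0.16 under R 4.3.3 (Benjamini-Hochberg threshold 0.05, 9 comparisons), with the embryo as a block after the design of the study and without it for age. Standard errors were derived from the F statistic, and the script was tested on simulated data. Alternatives were DESeq2 1.42.0 and its size factors, no filter, all 39 or the 32 libraries of the study, no block, a colour term, each cross, each embryo left out, and summed colours for age.

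Single individuals were replicates, so the colours that share an age and a replicate number were treated as 1 embryo. The sample sheet of the study lists E16 yellow replicate 3 under the other cross than red and green replicate 3, so it may come from another embryo. As a check, each library's departure from its group mean was correlated across genes with that of other libraries. The mean r was 0.0439 for the same number and -0.0092 for another number at E13, and 0.0294 and -0.0036 at E16. No 2 libraries were identical.

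The inhibitors, gene lists and markers were chosen with earlier results of these data known. The genes named were the 4 inhibitors and Cdkn1c throughout, listed genes past the threshold, and for each inhibitor the 3 genes most correlated with it, passing over Gm and Rik symbols. A listed gene and a correlated gene that met these rules are not reported here. The members of the G1 list, Skp2, Cks1b, Trp53, Cdkn2a and Cdkn2b are named to say what the lists hold.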

Additional observations from a re-analysis of the deposited data

Results flagged for a closer look

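In 17 of the 39 groups examined (each gene by age and group, and the differences within embryos by age), 1 library or embryo lay far from all the others, by the gap to its nearest neighbour relative to the range of the group. Chance gives this in about 1 group in 20 for values of roughly normal spread. That rate does not hold for these skewed CPM values with many at 0, where a group with a single library above 0 always meets the rule. All 14 single libraries lay on the high side.

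For Cdkn1c these were E13 patUPD red replicate 1 at 115.7 CPM and E16 patUPD red replicate 2 at 13.6 CPM. For Cdkn1a they were E13 matUPD red replicate 6 at 13.6 CPM (the other 4 at 0), E16 yellow replicate 3 at 6.59 CPM and E16 patUPD green replicate 4 at 7.67 CPM (the other 6 at 0). For Cdkn1b they were E16 matUPD green replicate 3 at 61.4 CPM and E16 yellow replicate 7 at 62.6 CPM. For Cdkn2c they were E13 yellow replicate 4 at 6.04 CPM, E13 patUPD green replicate 4 at 41.0 CPM and E16 patUPD green replicate 7 at 37.4 CPM. For Cdkn2d they were E13 matUPD red replicate 6 at 71.4 CPM, E16 matUPD red replicate 4 at 36.2 CPM, E16 yellow replicate 6 at 27.6 CPM and E16 patUPD red replicate 3 at 54.4 CPM.

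Of the differences between patUPD and matUPD cells within an embryo, Cdkn1a stood apart in E13 embryo 6 at -4.53 log2 CPM and in E16 embryo 4 at 3.75 log2 CPM, each set by a single library above 0. Cdkn1b stood apart in E16 embryo 6 at 6.05 log2 CPM, where the matUPD library, left out by the study, was at 0.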

How the results depend on the processing

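None of the inhibitors passed the threshold in any comparison under any of the alternatives. Among Cdkn1b, Cdkn2c and Cdkn2d the lowest adjusted p was 0.572 (Cdkn2c, patUPD over yellow cells at E13, DESeq2). Low counts limit Cdkn1a and Cdkn2c. Counts of genes past the threshold over all genes moved far more, and the cause was not tested. With the DESeq2 test they were 198 for patUPD over matUPD at both ages, 207 for the interaction, 202 at E13 and 61 at E16 for patUPD over matUPD, 488 and 58 for patUPD over yellow, 223 and 74 for green over red, and 198 for age. Without the filter on low counts they were 14, 4, 3, 11, 11, 1, 1, 0 and 55 in the order both ages, interaction, patUPD over matUPD at E13 and E16, patUPD over yellow at E13 and E16, green over red at E13 and E16, and age. In the 32 libraries of the study they were 2 for patUPD over yellow at E13 and 146 for age, and 524 for age with colours summed. Only embryos 4 and up gave 0 for patUPD over matUPD at E16. With 1 embryo left out they ranged from 3 to 7 over both ages, 0 to 1 at E13 and 1 to 3 at E16 for patUPD over matUPD, 0 to 1 for patUPD over yellow at E13 and 1 to 31 for age, where E16 embryo 7 gave the highest count.

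Without the replicate block the count was 5 for patUPD over yellow at E13 and 6 over both ages, Cdkn2c at E13 turned to 0.68 and Cdkn1b at E16 to -0.11 in patUPD over matUPD, and of the inhibitors no call changed.

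Directions of log2 fold changes that turned were those of values below their standard error. In patUPD over matUPD, Cdkn1b turned to 0.11 at E13 in embryos 4 and up, and at E16 to -0.45 in the 32 libraries and -0.067 in embryos 1 to 3. Cdkn2c at E13 turned to 2.91 and Cdkn2d at E16 to -1.12 in embryos 4 and up. In patUPD over yellow, Cdkn2d turned to 0.94 at E13 in embryos 1 to 3 and to -0.25 at E16 in embryos 4 and up, Cdkn1b to -0.15 at E16 in embryos 4 and up, and Cdkn2c to -2.36 at E16 in embryos 1 to 3. In green over red, all 39 libraries gave -1.43 for Cdkn1c and -0.15 for Cdkn1b at E13, and the 32 libraries gave -0.37 for Cdkn1b at E16. For age, Cdkn1b turned to -0.41 in all 39 and -0.40 in the 32 libraries.

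With 1 embryo left out, Cdkn1b ranged from -0.57 to 0.054 in patUPD over matUPD at both ages, from -0.83 to 0.041 at E13, from -0.61 to 0.45 at E16, from -0.12 to 0.95 in the interaction, from -0.35 to 0.85 over yellow at E16, from -0.52 to 0.54 in green over red at E16 and from -0.45 to 0.50 for age. Cdkn2c ranged from -2.92 to 0.66 in patUPD over matUPD at E13 and from -0.16 to 3.41 over yellow at E16. Cdkn2d ranged from -0.87 to 0.51 in patUPD over matUPD at both ages, from -0.21 to 1.00 over yellow at E16 and from -1.45 to 0.88 in green over red at E13, where Cdkn1c ranged from -1.39 to 1.34.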
